A study of Mus musculus with 2 samples.

Results

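The 5 genes Fezf2, Tbr1, Bcl11b, Bcl11a and Zfpm2 encode transcription regulators of deep-layer neurons of the neocortex. They were taken by name, and the p300 peaks counted for each were those whose midpoint lay inside the gene body or within 500 kb of its transcription start site. By this rule the 5 genes, of 22367 protein-coding genes, held 25 of the 6629 peaks in the deposited list. The peaks come from 1 p300 ChIP library of dorsal cerebral wall, dissected free of the hippocampus, cortical hem and choroid plexus, from E14.5 Swiss Webster mouse embryos with anti-p300 antibody C-20, and were called against 1 input library of the same tissue. The labels give no genotype or treatment other than formaldehyde fixation for 15 minutes, and they do not say how many embryos made up the 0.15 g of tissue. There was no replicate and no second condition, so the p-values below compare the positions of 1 list of peaks with uniform placement over the genome and do not compare samples.

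p300 is a histone acetyltransferase that transcription factors recruit to enhancers, and its binding away from promoters is used to map candidate enhancers. In the deep cortical plate, Fezf2 and its effector Bcl11b (Ctip2) direct neurons to the brainstem and spinal cord, whereas Tbr1 and the GATA cofactor Zfpm2 (Fog2) belong to neurons that project to the thalamus. Tbr1 represses Fezf2, and Bcl11a (Ctip1) is the paralogue of Bcl11b. The dissected wall also holds ventricular and subventricular progenitors, so a peak near one of these genes cannot be assigned to deep-layer neurons from these data, and the list holds no expression values.

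The peaks that carry the description below are the nearest to each start site and the widest beside each gene, plus the peak cloned by the study as elt4 beside Tbr1. The middle 300 bp of each are printed on the plus strand of mm9, with capitals marking any of the 8 motifs searched. These are the Neurod/Neurog E-box CAGATG, the palindromic E-box CAGCTG, the homeodomain core TAATTA, the T-box half-site AGGTGT, the Sox core ACAAAG, the POU octamer part TGCAAAT, the Nfi half-site TTGGCA and the Nfi dimer (TTGGC and GCCAA with 5 free bases between them), each on both strands. A half-site of Nfi can lie within a dimer, and sites of different motifs can share bases.
Fezf2, peak 1848, nearest and widest, chr14:13170363-13170662: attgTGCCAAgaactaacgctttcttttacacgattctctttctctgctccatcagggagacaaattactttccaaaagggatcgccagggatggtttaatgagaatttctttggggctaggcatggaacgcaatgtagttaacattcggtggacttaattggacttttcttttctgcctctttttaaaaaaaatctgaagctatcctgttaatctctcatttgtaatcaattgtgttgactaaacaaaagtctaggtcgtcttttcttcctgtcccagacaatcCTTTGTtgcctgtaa
Tbr1, peak 3376, nearest, chr2:61636083-61636382: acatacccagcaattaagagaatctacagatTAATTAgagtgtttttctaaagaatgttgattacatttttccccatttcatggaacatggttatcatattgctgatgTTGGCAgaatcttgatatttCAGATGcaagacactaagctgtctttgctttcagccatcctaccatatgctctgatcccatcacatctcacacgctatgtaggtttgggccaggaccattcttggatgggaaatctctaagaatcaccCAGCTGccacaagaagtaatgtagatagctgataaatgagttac
Tbr1, peak 3373, widest, chr2:61493717-61494016: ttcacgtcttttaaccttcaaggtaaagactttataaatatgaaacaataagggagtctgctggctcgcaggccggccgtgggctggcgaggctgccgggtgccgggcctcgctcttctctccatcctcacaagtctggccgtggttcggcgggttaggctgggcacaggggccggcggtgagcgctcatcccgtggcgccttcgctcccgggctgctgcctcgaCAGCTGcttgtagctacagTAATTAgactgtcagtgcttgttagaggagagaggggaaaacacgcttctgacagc
Tbr1, peak 3375, cloned as elt4, chr2:61589113-61589412: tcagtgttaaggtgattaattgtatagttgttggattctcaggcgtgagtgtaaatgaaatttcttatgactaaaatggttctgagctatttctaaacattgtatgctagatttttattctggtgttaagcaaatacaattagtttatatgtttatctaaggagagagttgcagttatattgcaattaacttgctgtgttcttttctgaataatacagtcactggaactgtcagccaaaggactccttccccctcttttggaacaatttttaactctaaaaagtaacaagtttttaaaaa
Bcl11b, peak 1441, nearest and widest, chr12:109169899-109170198: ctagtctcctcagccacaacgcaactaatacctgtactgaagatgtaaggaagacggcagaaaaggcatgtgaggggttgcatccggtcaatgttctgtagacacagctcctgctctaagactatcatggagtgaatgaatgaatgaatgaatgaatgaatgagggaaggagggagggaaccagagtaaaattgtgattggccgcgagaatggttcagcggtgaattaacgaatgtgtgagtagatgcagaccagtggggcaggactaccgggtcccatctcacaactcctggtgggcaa
Bcl11a, peak 750, nearest, chr11:24230530-24230829: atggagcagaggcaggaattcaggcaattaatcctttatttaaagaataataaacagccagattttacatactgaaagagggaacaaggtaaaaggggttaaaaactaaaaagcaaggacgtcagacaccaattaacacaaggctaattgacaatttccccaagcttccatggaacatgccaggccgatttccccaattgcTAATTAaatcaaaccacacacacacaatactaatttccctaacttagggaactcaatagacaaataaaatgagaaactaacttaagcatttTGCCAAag
Bcl11a, peak 751, widest, chr11:24271390-24271689: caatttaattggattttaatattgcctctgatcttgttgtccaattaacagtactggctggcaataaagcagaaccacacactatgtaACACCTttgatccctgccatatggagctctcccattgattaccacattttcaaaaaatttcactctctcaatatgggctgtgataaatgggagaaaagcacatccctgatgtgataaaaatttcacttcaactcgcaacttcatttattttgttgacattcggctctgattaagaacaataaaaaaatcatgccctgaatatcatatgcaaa

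The 5 genes differed widely in how many p300 peaks lay around them. Fezf2 had 10, Tbr1 7, Bcl11b 6, Bcl11a 2 and Zfpm2 0, each over 1.0 Mb of assembled sequence. A window of that length would hold 2.59 peaks if the list were spread evenly, so that Fezf2 stood at 3.86 times, Tbr1 at 2.7 times and Bcl11b at 2.32 times this number, and Bcl11a at 0.772 times. Over all protein-coding genes the median was 1 peak, the mean 2.39, and 30.0% of genes had none, as Zfpm2 did. Counts at least as high as those of Fezf2, Tbr1, Bcl11b and Bcl11a were found for 2.72%, 8.63%, 12.7% and 48.8% of the genes.

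Of the 5 genes, Fezf2 alone passed the test for more peaks than uniform placement predicts (adjusted p = 0.0131, exact binomial test, one-sided, with Benjamini-Hochberg adjustment over the 22367 genes). The same test called 914 genes, or 4.09% of those tested. Among them was 3830406C13Rik, whose start site lies 61.66 kb from that of Fezf2, also with 10 peaks (adjusted p = 0.0131, same exact test). The call is thus not particular to Fezf2 within its locus. Tbr1 (adjusted p = 0.197), Bcl11b (0.383), Bcl11a (1.0) and Zfpm2 (1.0) did not pass this exact test. Another peak lay within 5 kb of 14.7% of all peaks, a clustering that uniform placement does not allow for, and of 28.0% of the 25 peaks (7, exact 95% interval 12.1 to 49.4%). When neighbours less than 5 kb apart were joined, Fezf2 had 8 and no longer passed (adjusted p = 0.0892, same exact test). The differences between the members' counts were not tested.

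**Figure D1:**
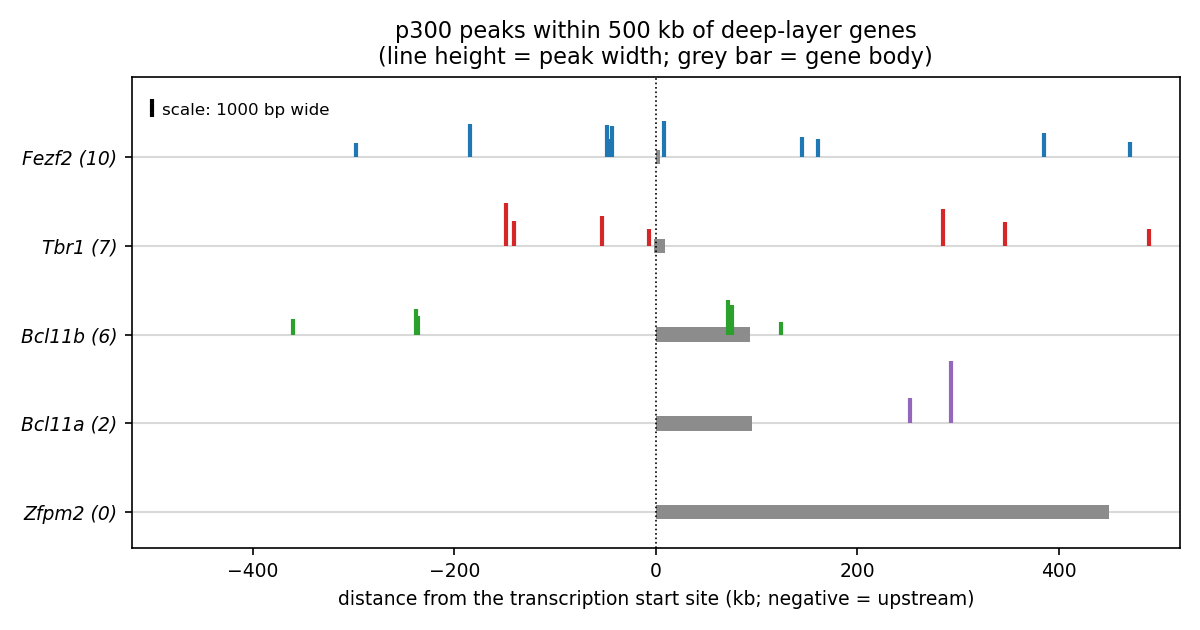
Positions of the 25 p300 peaks around the 5 start sites, in kb along the direction of transcription, with line height giving the peak width in bp and grey bars the gene bodies. Peaks of Fezf2 and Tbr1 lie on both sides, with 1 of each within 10 kb, those of Bcl11a only on the downstream side, and the line of Zfpm2 is empty.

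**Figure D2:**
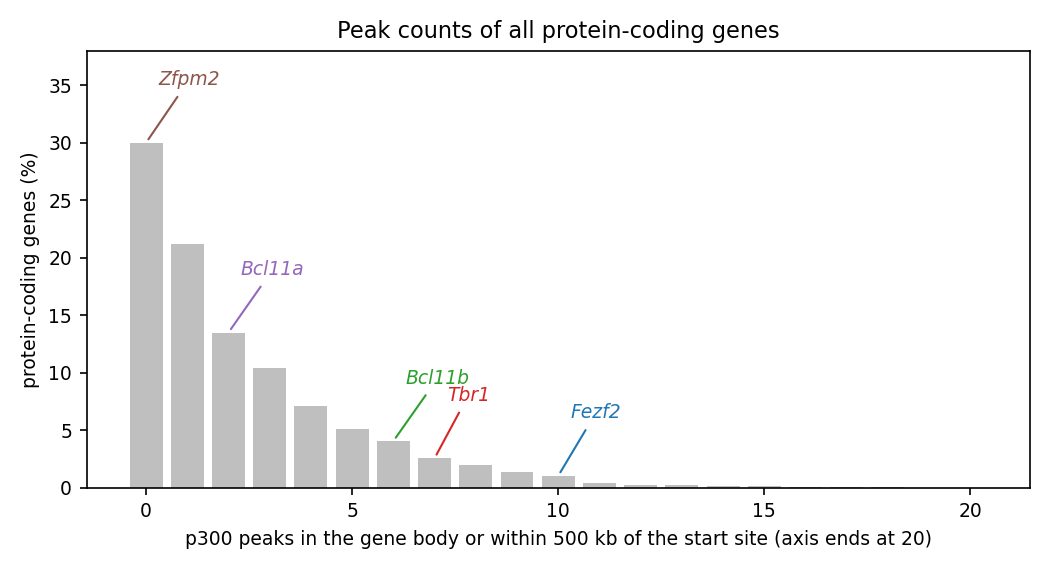
Share of the 22367 protein-coding genes (vertical axis, percent) by number of p300 peaks in the gene body or within 500 kb of the start site (horizontal axis, drawn to 20). Zfpm2 stands in the bar of genes with 0 peaks and Fezf2, with 10, in a bar that holds 1.04% of genes.

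Fezf2 (ENSMUSG00000021743), a zinc finger repressor that specifies subcerebral projection neurons, is a short gene of 3.97 kb (chromosome 14, 13174406 to 13178379, minus strand). Its peaks were evenly divided, with 5 upstream and 5 downstream of the start site. None lay inside the gene, and 9 of the 10 lay in introns of its long neighbours, 5 in Cadps, which primes vesicles for secretion, and 4 in the receptor phosphatase gene Ptprg. The remaining peak, number 1848, was intergenic and 7.87 kb from the start. A peak as near as this was found for 1.78% of protein-coding genes. The paper describes its Fezf2-proximal peak as containing the enhancer E4, and cites earlier work in which deleting E4 altered corticospinal projections. It reports that peak as the only p300 peak in the sequence flanking Fezf2 in a genomic clone (BAC). That stretch is shorter than the window counted here. Coordinates of E4 and of the clone were not compared with peak 1848 or the other peaks here.

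A group of 3 peaks followed on the other side, in an intron of Cadps. Peak 1849 (chromosome 14, 13220709 to 13222446) lay 43.2 kb upstream of Fezf2, peak 1850 (13223443 to 13224435) 45.6 kb and peak 1851 (13225463 to 13227250) 48.0 kb. Only 0.996 and 1.03 kb of sequence separated them. Of the 6609 pairs of neighbouring peaks in the genome, 2.81% and 2.87% had midpoints as close as these pairs. With peak 1848 they put 4 peaks within 50 kb of the Fezf2 start site, a number reached by 78 protein-coding genes, or 0.349%. For the counts of Fezf2 within 10, 100, 250 and 500 kb the shares were higher, at 2.34%, 1.53%, 2.03% and 2.69%. The 3 peaks of the group merge when neighbours less than 5 kb apart are joined.

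The other 6 peaks of Fezf2 lay farther out, on both sides. Upstream in Cadps, peak 1852 was 184.7 kb away and peak 1853 was 297.3 kb away. Downstream in Ptprg, peaks 1847 and 1846 lay at 145.3 and 160.7 kb and peaks 1845 and 1844 at 385.0 and 470.4 kb. Measured to start sites of protein-coding genes, 5 of the 10 peaks were nearest to Fezf2 itself, 3 to 3830406C13Rik, 1 to Cadps and 1 to Ptprg. No further peak lay between 500 kb and 1 Mb, and the next were 1306 kb upstream and 2124 kb downstream. Within 1 Mb the count of 10 therefore stayed as it was and no longer passed (adjusted p = 0.269, the same exact test).

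Tbr1 (ENSMUSG00000035033), a T-box factor of corticothalamic neurons, covers 11.2 kb (chromosome 2, 61640987 to 61652171, plus strand). Of its 7 peaks, 4 were upstream and 3 downstream, and the gene body held none. Peak 3376 was 6.28 kb upstream of the start of its longest coding transcript, and 1.25% of protein-coding genes had a peak at least that near. It was the only peak of the 7 whose nearest coding start site was that of Tbr1. The next in the upstream direction was peak 3375, at 53.25 kb, followed by peak 3374 at 140.9 kb and peak 3373 at 148.6 kb. Both 3375 and 3376 lay within Psmd14, which encodes a deubiquitinase of the proteasome, while 3373 and 3374 were intergenic.

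On the downstream side all 3 peaks lay in introns of Slc4a10, a bicarbonate transporter gene. They were peaks 3377, 3378 and 3379 at 284.8, 346.8 and 489.6 kb from the Tbr1 start. The midpoints on either side of that start were thus 291.1 kb apart, a distance that 32.6% of neighbouring peaks in the genome reached or exceeded. For Fezf2 the corresponding distance was 51.1 kb. A share of intervals is not a share of genes, since a long interval is more likely to hold a given start site.

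The peak nearest to Tbr1 overlapped an annotated 5S_rRNA model, of 117 bp (chromosome 2, 61636237 to 61636353, plus strand). The name is the annotation's alone. The paper describes a co-opted AmnSine1 repeat in the middle of the only peak it found close upstream of Tbr1. No repeat annotation was used here, so how the model and that repeat overlap was not examined. The middle of the model lay 62 bp from the middle of the peak, so the model lies inside the printed sequence. Among all 6629 peaks this was the only peak to overlap any of the 129 5S_rRNA models of the annotation, a count made after the overlap was seen. The same 300 bp held 4 of the searched motifs, more than the middle of any other of the 25 peaks. They were the homeodomain core, the Nfi half-site, the Neurod/Neurog E-box and the palindromic E-box, and the last of these starts at 61636339, inside the 5S_rRNA model.

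For the element cloned as elt4, the paper reports reporter activity in superficial neocortical cells of transgenic E14.5 embryos. Here the element was placed by its primers.
elt4 forward primer: attccggagcccagaagtat
elt4 reverse primer: catgaaacccttcaaaattgc
The pair matched exactly, with both primers within 5 kb of each other, at a single place, chromosome 2 from 61588485 to 61590122, and the product of 1638 bp contains 96.1% of peak 3375. That peak had a GC content of 28.6%, which 99.8% of all peaks reached or exceeded. It overlapped an exon of a Psmd14 transcript, the only peak of the 25 to overlap an exon of a protein-coding gene. Its middle 300 bp held none of the 8 motifs, but the whole peak held 10 sites, 3 of them homeodomain cores.

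Bcl11b (ENSMUSG00000048251), the zinc finger factor that acts after Fezf2 in corticospinal neurons, spans 93.2 kb (chromosome 12, 109148613 to 109241812, minus strand). It was the only gene of the 5 with peaks inside its own body. These were peak 1440 (109165805 to 109167472) and peak 1441 (109169064 to 109171035), 75.2 and 71.8 kb downstream of the start site in an intron, with 1.59 kb between them. Peak 1439 lay beyond the end of the gene, 124.1 kb from its start. All 3 were nearest to the start site of Bcl11b.

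The 3 upstream peaks were farther away and nearer to other genes. Peaks 1442 and 1443, separated by 305 bp, lay in an intron of the coiled-coil gene Ccdc85c at 236.1 and 237.7 kb from Bcl11b. Peak 1444, at 360.3 kb, was intergenic and 29.6 kb from the start of Cyp46a1, a cholesterol hydroxylase gene of neurons. No peak lay within 50 kb of the Bcl11b start site, and the 307.9 kb between the midpoints on either side of it hold 3 coding start sites, its own included. A further 6 peaks were found between 500 kb and 1 Mb, for a total of 12 within 1 Mb (adjusted p = 0.0809, exact binomial test).

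Bcl11a (ENSMUSG00000000861) has a body of nearly the same length as its paralogue, 96.1 kb (chromosome 11, 23978056 to 24074123, plus strand), and held no peak in it. Its 2 peaks were intergenic, both on the downstream side, at 252.5 kb (peak 750, 24229959 to 24231402) and 293.4 kb (peak 751, 24269787 to 24273294). Peak 751 was 3508 bp wide, the widest of the 25 and number 14 in width among all 6629. For both peaks Bcl11a had the nearest coding start site.

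The same downstream interval held more peaks past the limit of the window. Peaks 752, 753 and 754, at 553.6, 616.0 and 638.6 kb, were again nearest to Bcl11a, so that a domain extended up to 1 Mb towards the neighbouring protein-coding genes held 5 peaks, 1.92 times the 2.6 expected (adjusted p = 1.0, exact binomial test). On the upstream side the first peak, 749, was 937.3 kb away. The midpoints on either side of the start were 1.19 Mb apart, an interval that holds 11 coding start sites. Of neighbouring peaks in the genome, 7.46% were at least as far from each other. That share is of intervals, and a long interval is more likely to hold a given start site. The nearest peak was at least as far away as the 252.5 kb of Bcl11a for 51.2% of protein-coding genes.

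Zfpm2 (ENSMUSG00000022306) is the longest of the 5 genes, with 449.6 kb (chromosome 15, 40486588 to 40936138, plus strand), and the window around it holds no other coding start site. No p300 peak lay in any of its introns or within 500 kb of its start. The nearest was peak 2160 (39946071 to 39947272), 539.9 kb upstream, and peaks 2159 and 2158 lay behind it at 636.2 and 778.4 kb. The first peak downstream, number 2161, was 1998 kb away. Its start site thus fell in an interval of 2.54 Mb between peak midpoints. Of the 6609 intervals between neighbouring peaks, 1.83% were at least as long. That share counts intervals and not genes, and a long interval is more likely than a short one to hold a given start site. The nearest peak was at least as far away as that of Zfpm2 for 28.0% of protein-coding genes. The list holds called peaks only, so p300 signal below the authors' threshold at Zfpm2 was not measured here.

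**Figure D3:**
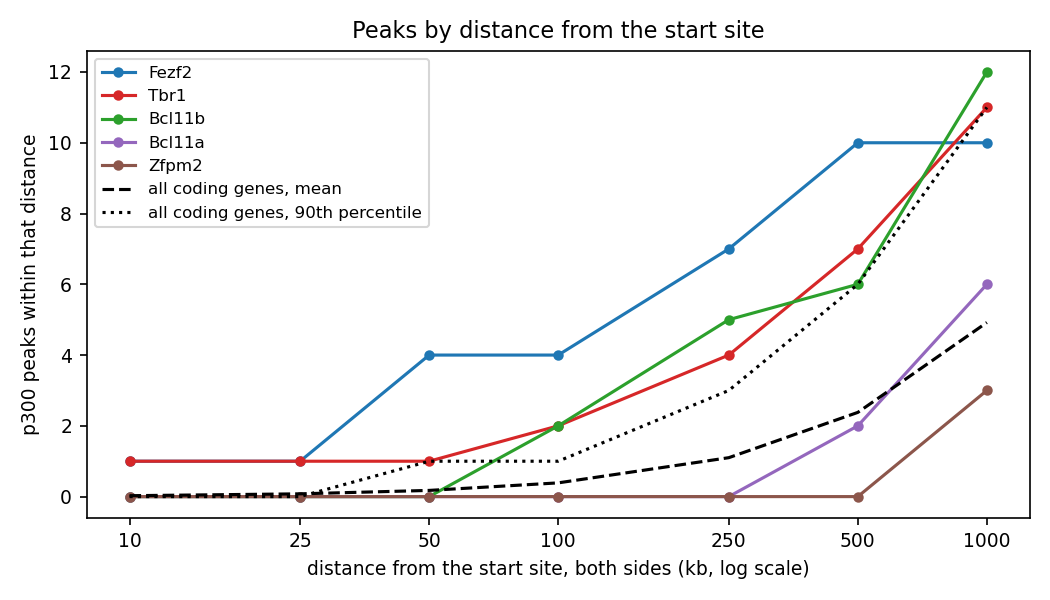
Number of p300 peaks within a given distance of the start site on both sides (vertical axis) against that distance in kb (horizontal axis, log scale) for the 5 genes, with the mean and the 90th percentile of 22367 protein-coding genes. Fezf2 reaches 4 peaks by 50 kb and 10 by 500 kb and adds none after that, whereas Bcl11b goes from 0 at 50 kb to 12 at 1000 kb.

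Distance from the start site separated the genes as well as number. Fezf2 and Tbr1 each had a peak within 10 kb, as 2.34% of protein-coding genes did. Within 100 kb, Fezf2 had 4 peaks and Tbr1 and Bcl11b had 2 each, where the mean over all genes was 0.388 and 24.2% of genes had any. Within 250 kb the numbers were 7 for Fezf2, 4 for Tbr1, 5 for Bcl11b and 0 for both Bcl11a and Zfpm2. At that distance 48.4% of all genes had any peak, and the median was 0. The outermost peaks counted were at 470.4 kb for Fezf2, 489.6 kb for Tbr1, 360.3 kb for Bcl11b and 293.4 kb for Bcl11a. Just outside the limit, peak 1445 lay 507.6 kb from Bcl11b and peak 3372 lay 520.5 kb from Tbr1. The authors removed peaks near start sites, so binding at the promoters themselves is not covered by any of these counts.

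Of the 25 peaks, 12 were upstream and 13 downstream of the gene they were counted for, and 11 (44.0%, exact Clopper-Pearson 95% interval 24.4 to 65.1%) had its start site as the nearest coding start site. The intervals here and below cover counting error only. Inside a protein-coding gene lay 18 of the 25 (72.0%, interval 50.6 to 87.9%), beside 42.7% of all peaks, and 16 of the 18 were in a gene other than the 5. The introns of Cadps, Ptprg and Slc4a10 alone, each gene being over 280 kb long, held 12 of them. Since peaks of a locus share their surroundings, this share describes 4 loci and was not tested.

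The peaks beside these genes ran from 684 bp, a width that 93.2% of all peaks reached, to 3508 bp. Their median width was 1405 bp, against 1017 bp over all 6629, and 17 of 25 (68.0%, exact 95% interval 46.5 to 85.1%) were at least as wide as that median, beside 50.1% of all peaks. Here too peaks of a locus share their surroundings, and the share was not tested. By gene the medians were 1223 bp for Fezf2, 1405 bp for Tbr1, 1232 bp for Bcl11b and 2476 bp for the pair at Bcl11a. Among those of Fezf2, peak 1848 was the widest with 2034 bp, and 4.07% of all peaks were that wide. At Tbr1, on the other hand, the nearest peak was among the narrower with 940 bp, and the widest, peak 3373 with 2419 bp, lay 148.6 kb away.

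Base composition differed between the loci. The 10 peaks of Fezf2 had GC contents between 41.3 and 48.9%, all between the quartiles of the whole list, whose median was 45.2%. Those of Bcl11b ran from 47.7 to 58.3%, in a window of 48.5% GC. The lowest, peak 1441, lay between the quartiles of the whole list, and the others lay above them. At Tbr1, whose window had 38.6%, 6 of the 7 peaks fell between 28.6 and 40.2%, and peak 3373 stood apart with 56.5%. The 2 peaks of Bcl11a had 45.4 and 48.0%, in a window of 42.4% GC, the same value as for the window of Fezf2.

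**Figure D4:**
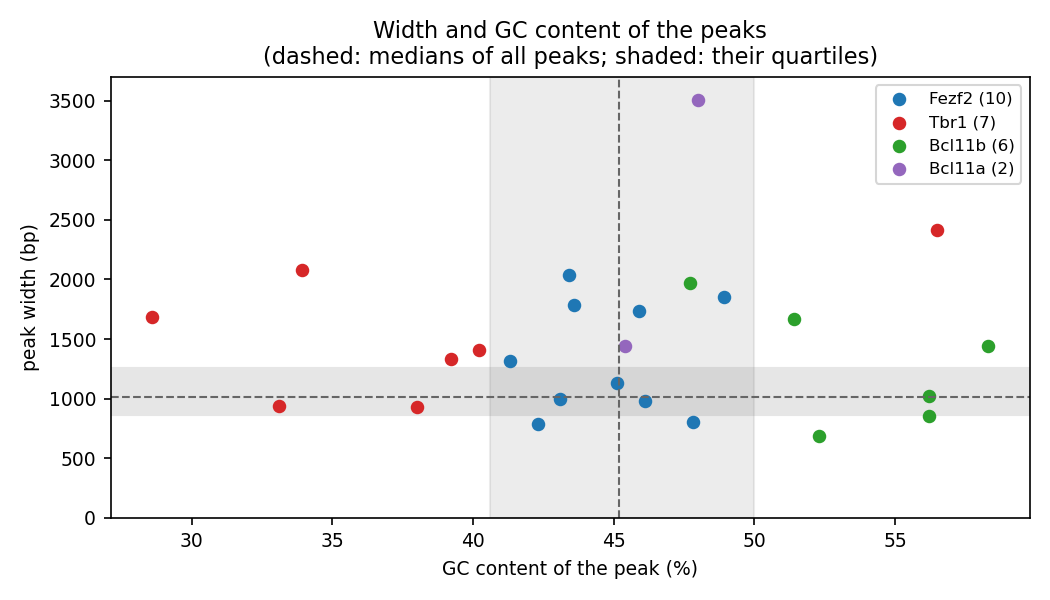
Width in bp (vertical axis) against GC content in percent (horizontal axis) for the 25 peaks, coloured by gene, with dashed lines at the medians of all 6629 peaks and shading between their quartiles. Peaks of Tbr1 lie to the left except for number 3373, those of Bcl11b to the right, and peak 751 of Bcl11a is at the top with 3508 bp.

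The middle 300 bp of 21 of the 25 peaks held 1 or more of the 8 motifs. The 4 without any were peaks 3374 and 3375 of Tbr1 and peaks 1441 and 1443 of Bcl11b, and over all peaks 10.6% had none. The Nfi half-site, bound by factors that promote neuronal and glial maturation, was the most frequent and occurred in 9 peaks (36.0%), beside 31.7% of all 6629. The palindromic E-box occurred in 8 (32.0%, beside 31.0%) and the Neurod/Neurog E-box in 7 (28.0%, beside 45.7%). For the Sox core the numbers were 6 peaks and 24.0%, beside 27.0%, and for the homeodomain core 4 peaks and 16.0%, beside 23.6%. The T-box half-site that Tbr1 itself can bind was found in 3 peaks (12.0%, beside 13.6%), namely 1850 of Fezf2, 1444 of Bcl11b and 751 of Bcl11a, and not in the middle of the 7 at Tbr1. Over whole peaks it was in 12 of the 25 (48.0%, beside 42.7%), among them 4 of the 7 at Tbr1. The POU octamer part was also found in 3 (12.0%, beside 10.3%). The Nfi dimer was found in 0 peaks, and in 0.196% of all. These shares are a description and were not tested.

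**Figure D5:**
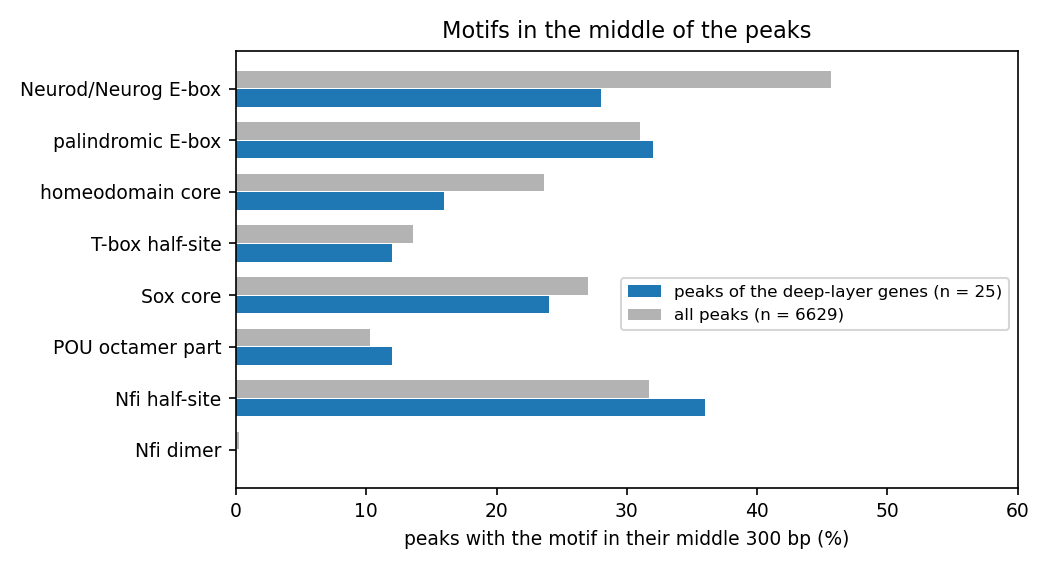
Share of peaks, in percent, with each motif in the middle 300 bp, for the 25 peaks of the deep-layer genes (blue) and all 6629 peaks (grey). The bars are of similar length for most motifs, and the widest gap is at the Neurod/Neurog E-box, with 28.0 and 45.7%.

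Counts by locus depended on the stretch searched and were not tested. In the middle 300 bp the palindromic E-box was found in 5 of the 10 peaks of Fezf2, 3 of the 7 of Tbr1 and 0 of the 8 at Bcl11b and Bcl11a. Over whole peaks it was in 8 of the 10, 6 of the 7, 1 of the 6 at Bcl11b and 1 of the 2 at Bcl11a. The nearest peak of Fezf2 held an Nfi half-site at its left edge and a Sox core near its right, as printed above, and peaks 1849 and 1851 of the nearby group held Neurod/Neurog E-boxes. In peak 1849 the first of these overlaps a POU octamer part. The middle of peak 1441 in Bcl11b held none of the motifs and instead a run of 7 copies of tgaa over 28 bp. Over whole peaks the Neurod/Neurog E-box was in 19 of the 25 (76.0%, beside 74.8% of all peaks) and the Nfi half-site in 21 (84.0%, beside 60.7%). In the middle 500 bp, an equal length for all peaks, the shares were 48.0% (beside 57.3%) and 52.0% (beside 42.4%). The part of peak width in these shares was not tested. Per kb, the 25 whole peaks had a median of 5.1 sites of all motifs, beside 5.41 over all peaks.

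Other genes of laminar identity also had few or many peaks. Of 20 further deep-layer genes, 3 passed the test, beside the 4.09% of all genes. These were Etv1, an ETS factor, with 11 peaks (adjusted p = 0.00503, exact binomial test), the corepressor gene Tle4 with 10 (adjusted p = 0.0131, exact test) and Sox5, which controls the timing of deep-layer fates, with 10 (adjusted p = 0.0222, exact test). Their counts ran from 1 to 11 with a median of 3.5. Of 12 upper-layer genes, 2 passed, Mdga1 with 16 peaks (adjusted p = 3.92e-06, exact test) and Cux2 with 9 (adjusted p = 0.0354, exact test), and the median was again 3.5 in a range of 1 to 16.

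None of the 4 further paralogues passed. Fezf1, expressed in other parts of the forebrain, had 6 peaks (adjusted p = 0.383, exact test), the nearest of them 3.77 kb from its start. Eomes and Tbx21, the T-box relatives of Tbr1, had 7 each, the same number as Tbr1, but their nearest peaks were 150.1 and 194.9 kb away. Zfpm1 had 8 peaks, the nearest at 346.4 kb, where Zfpm2 had 0 (adjusted p = 0.0869 and 1.0, exact test).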

How the data were processed

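The authors aligned reads of the p300 ChIP and input libraries to mm9 with ELAND and used MACS for peak calling (the submitters' processing notes name version 1.4). On the authors' annotation, peaks at exons, within 2.5 kb of start sites or with suspected non-unique mapping were removed. The deposited list gives chromosome, start, end and number for each of 6629 peaks, with no score, signal or read count, so depth per peak is unknown. No data of the input library were analysed here. On the annotation used here, 21 peaks lay within 2.5 kb of a coding start site and 143 (2.16%) overlapped an exon.

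Positions were computed on NCBIM37, which is the mm9 assembly (2.56 Gb assembled), with GENCODE vM1. The transcript with the longest coding sequence set the start site of a gene. Midpoints were counted in the gene body or within 500 kb. Counts were compared with the window's share of assembled bases by an exact binomial test (one-sided), with p-values adjusted over 22367 protein-coding genes after Benjamini and Hochberg and a threshold of 0.05. Windows of neighbouring genes overlap. Regulatory domains ran from 5 kb upstream to 1 kb downstream of start sites, extended by up to 1 Mb to the next. Motifs were matched exactly on both strands. Python 3.11.15, numpy 2.4.6, scipy 1.17.1 and matplotlib 3.10.9 were used, and the scripts were tested on simulated data.

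The genes, gene lists and motifs were chosen with earlier results of these data known. All 5 genes were named, with listed genes that passed and paralogues. Sequences shown were those of the nearest and widest peak per gene and the cloned element. Alternatives changed the distance, start sites, peaks counted, region, genes tested, expectation and stretch searched.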

Additional observations from a re-analysis of the deposited data

How the results depend on the processing

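The call for Fezf2 depended on the counting. It held in 5 of 10 alternatives and was lost with 1 Mb windows (10 peaks, adjusted p = 0.269, exact binomial test), with the wider peaks alone, from the median width up (6, 0.0671), with peaks less than 5 kb apart joined (8, 0.0892), in the regulatory domain (6, 0.176) and with peaks nearest to its start site alone (5, 0.117). Not all of the 5 alternatives that kept the call changed what was counted for Fezf2. Its start site is already the 5-prime-most, so that alternative repeated the same window. Counting any overlap, testing all annotated genes and taking the expectation from the same chromosome left 10 peaks, and 250 kb left 7. Tbr1, Bcl11b, Bcl11a and Zfpm2 passed in 0 of 10 alternatives. Bcl11a went from below to above the expected number with 1 Mb windows (6 peaks, 1.16 times), wide peaks (2, 1.54 times), the domain (5, 1.92 times) and nearest peaks (2, 1.54 times). For Tbr1 the count ran from 1, for nearest peaks, to 11 within 1 Mb. The number of genes called, 914, was 466 with 250 kb, 1537 with 1 Mb, 459 with wide peaks, 516 with joined peaks, 255 with the domain, 105 with nearest peaks and 1573 among all 37273 annotated genes. Of the 25 peaks, 21 held a motif in the middle 300 bp, and 25 did in 500 bp or the whole peak.

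The list gives no reads per peak, and a threshold on signal was not tried. No paired analysis was possible because there is 1 library of each kind, and none was left out.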
